A study of Bos indicus and Bos indicus x Bos taurus and Bos taurus with 6 samples.

Results

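The genes described here encode the eukaryotic translation initiation factors, the proteins that place a ribosome at the start codon of an mRNA. They were taken as every row of the raw count matrix whose symbol begins with EIF and a digit from 1 to 6, leaving out the EIF2AK genes, which encode kinases that act on the factor eIF2. The rule gave 49 genes of 21698 in the table, and 47 of them passed the filter on low counts that 13455 genes passed. Their mRNA was compared in whole blood of cows of 3 breeds with 2 libraries a breed. Kedah-Kelantan is an indigenous tropical Bos indicus breed labelled heat tolerant. Brangus is a composite of Bos taurus and Bos indicus labelled intermediate, while the Bos taurus dairy breed Holstein Friesian is labelled heat vulnerable. All cows were healthy adult females, neither pregnant nor lactating, aged 4.5 ± 1.2 years and weighing 450 ± 15 kg (mean and spread over the animals as labelled). They stood on 1 farm in Malaysia and were bled from the jugular vein at peak heat load. This load was given as a Temperature-Humidity Index of 44.68 with no formula in the sources used here, so the scale of the index is not known. All 3 groups were labelled as under heat stress, so heat itself has no control group. A breed is represented by 2 biological replicates although the design text speaks of 4 animals a breed. Whether a library pools animals is not stated in the sources used here.

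Initiation begins when eIF2 carries the initiator methionyl-tRNA to the small ribosomal subunit, which eIF1, eIF1A, eIF3 and eIF5 hold ready. The eIF4F complex (the cap-binding protein eIF4E, the scaffold eIF4G and the RNA helicase eIF4A) brings in the capped mRNA, and eIF5B then joins the large subunit. Cells turn the process down by phosphorylating eIF2, which blocks its exchange factor eIF2B, or by letting eIF4E-binding proteins occupy eIF4E. Such control acts mostly on the proteins and is not seen in mRNA levels.

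Total counts ran from 25275377 to 28668857 per library, and the initiation factor genes took 0.809% to 1.04% of them. CPM (counts scaled to equal library size) below use library sizes rescaled by TMM, a method that sets the typical gene to an equal level. The blood marker genes did not lie evenly over the libraries. Between Holstein Friesian replicates 1 and 2 the summed B cell markers (11 genes) stood at 3116 and 241.9 CPM, the monocyte markers (10 genes) at 499.7 and 8062 CPM, and the neutrophil markers (9 genes) at 379.9 and 5182 CPM. In the other 4 libraries these sums were 2015 to 3195, 1176 to 1734 and 1420 to 2718 CPM. The platelet markers (9 genes) summed to 1287 and 1416 CPM in Brangus and to 299.6 to 551.4 CPM in the other libraries. The NK and cytotoxic cell markers (10 genes) summed to 782.1 and 882.7 CPM in Kedah-Kelantan and to 330.9 and 425.2 CPM in Brangus. In Holstein Friesian replicates 1 and 2 they summed to 822.7 and 404.5 CPM. T cell markers (11 genes) lay between 2430 and 3358 CPM. The red cell markers (11 genes) reached only 102.2 to 644 CPM in this whole blood, with HBB, a beta-globin gene, at 94.99 to 634.5 CPM and HBA1 at 0 counts in every library, and no globin depletion is given in the sources used here.

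Brangus had the highest estimate of the 3 breeds for 35 of the 47 initiation factor mRNAs with TMM (26 with total counts only), beside 35.8% and 22.4% of all genes, but no difference passed the test. Of the 47 genes, 38 had a lower estimate in Kedah-Kelantan than in Brangus with TMM (30 with total counts only), and the median log2 fold change was -0.39 (-0.13 with total counts only). The same medians over all 13455 genes were 0.02 with TMM and 0.29 with total counts only. Among the 9123 genes within the same span of mean CPM, the median was 0.0021. In 36 of the 47 genes both Kedah-Kelantan libraries lay below both Brangus libraries, against 30.7% of all genes tested, and in 6 they lay above, against 33.5%. With total counts only these counts were 23 below and 14 above, against 16.9% and 52.8% of all genes. No initiation factor gene was called by edgeR's quasi-likelihood test at a Benjamini-Hochberg adjusted p under 0.05 in this comparison, where 0% of all genes were called. At an unadjusted p under 0.05 the test listed 11 of the 47 genes, all lower in Kedah-Kelantan, against 6.09% of all genes in that direction. DESeq2 called 6 genes lower in Kedah-Kelantan, EIF1B, EIF3G, EIF3H, EIF3K, EIF3M and EIF4B, against 2.74% of all genes. In bulk blood, fewer cells of a type and less RNA per cell cannot be told apart.

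**Figure D1:**
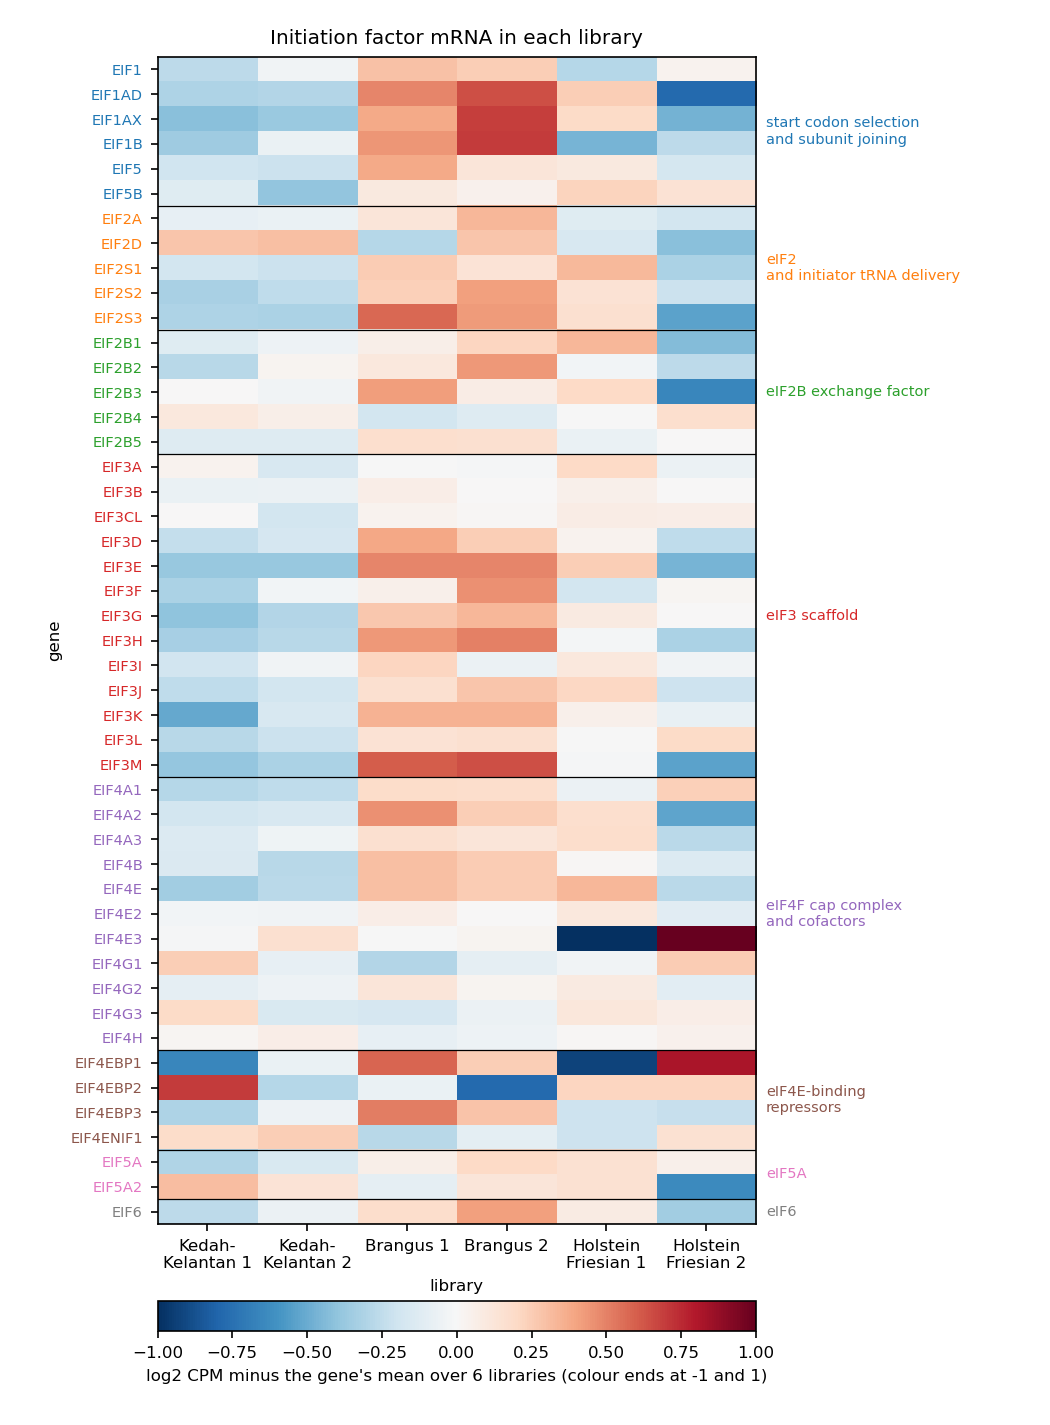
Each row is an initiation factor gene and each column a library. Colour gives the log2 CPM minus the mean of that gene over the 6 libraries, with TMM scaling. The 2 Brangus columns are above the mean in most rows, while Holstein Friesian replicates 1 and 2 differ from each other, most of all at EIF4E3 and EIF4EBP1.

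The genes for start codon selection and subunit joining showed the largest group median between Kedah-Kelantan and Brangus. All 6 tested members were below Brangus without overlap (5 with total counts only), against 30.7% of all genes (16.9%), with a median of -0.62 (-0.36 with total counts only). EIF1B encodes a close relative of eIF1, the factor that keeps the scanning ribosome from starting at a wrong codon, and lies on chromosome 22 from 13170212 to 13172678 on the plus strand in the authors' table. It stood at 107 and 130.3 CPM in the Kedah-Kelantan libraries, 186 and 221 in the Brangus libraries, and 98.8 and 114 in the Holstein Friesian libraries. Both Brangus libraries thus exceeded the other 4. The log2 fold change of Kedah-Kelantan against Brangus was -0.78 (SE 0.20, edgeR adjusted p = 0.353), and that of Brangus against Holstein Friesian was 0.94 (SE 0.20, edgeR adjusted p = 0.641). The latter was the only one of the 47 genes that DESeq2 called between these breeds, against 1.09% of all genes called higher.

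EIF1 itself, the most abundant of this group per length, had 545 and 639 CPM in the Kedah-Kelantan libraries, 801 and 773 in the Brangus libraries, and 536 and 671 in the Holstein Friesian libraries. EIF1AX encodes eIF1A, which works with eIF1 on the small subunit, and maps to the X chromosome in the authors' table. Its libraries stood at 62.3 and 64.4 CPM in the Kedah-Kelantan libraries, 109 and 135 in the Brangus libraries, and 95.1 and 60.0 in the Holstein Friesian libraries. The Kedah-Kelantan and Brangus values were apart, with 1 Holstein Friesian library between them and 1 below both. Brangus exceeded Holstein Friesian by 0.65 on the log2 scale (SE 0.27, edgeR adjusted p = 0.653). A further row, LOC101906012, is described as an eIF1A gene and held 22 to 96 counts, highest in Kedah-Kelantan at 96 and 65. Reads shared by near-identical copies could be divided between these rows in a way that the sources do not give. EIF1AD, an eIF1A-domain gene, had 15.4 and 15.6 CPM in the Kedah-Kelantan libraries, 26.9 and 29.99 in the Brangus libraries, and 22.8 and 11.2 in the Holstein Friesian libraries.

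EIF5B, the GTPase that joins the subunits, showed another order. It was lowest in Kedah-Kelantan at 86.5 and 71.6 CPM, reached 100.5 and 96.8 in Brangus, and was highest in Holstein Friesian at 109.6 and 104. All 3 breeds were apart in this gene with TMM, but with total counts only its Kedah-Kelantan and Brangus libraries overlapped. Kedah-Kelantan against Holstein Friesian gave -0.43 (SE 0.17, edgeR adjusted p = 0.995), and Brangus against Holstein Friesian gave -0.11 (SE 0.17, edgeR adjusted p = 0.843). The row LOC614207, described as EIF5B-like, held 453 to 762 counts.

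The eIF2 complex, which delivers the initiator tRNA, is encoded by EIF2S1, EIF2S2 and EIF2S3. With EIF2A and EIF2D, which encode other tRNA-delivering factors, they form a group of 5, of which 4 lay below Brangus in Kedah-Kelantan without overlap (3 with total counts only), against 30.7% of all genes (16.9%). The group median was -0.40, or -0.13 with total counts only. EIF2S3, the gamma subunit that binds GTP and the tRNA, was the most abundant per length and the one with the smallest p. It had 278 and 276 CPM in the Kedah-Kelantan libraries, 513 and 462 in the Brangus libraries, and 385 and 237 in the Holstein Friesian libraries. Its Brangus libraries stood above the other 4, and Brangus against Holstein Friesian gave 0.65 (SE 0.27, edgeR adjusted p = 0.654). EIF2D went the other way, with 23.5 and 23.9 CPM in the Kedah-Kelantan libraries, 15.9 and 23.5 in the Brangus libraries, and 17.3 and 14.5 in the Holstein Friesian libraries. Its Kedah-Kelantan libraries were the highest of the 6, over Brangus replicate 2 by less than the rounding shows. The estimates were 0.57 over Holstein Friesian (SE 0.27, edgeR adjusted p = 0.995) and 0.27 over Brangus (SE 0.27, edgeR adjusted p = 0.729). EIF2A had 94.5 and 95.6 CPM in the Kedah-Kelantan libraries, 109.2 and 126 in the Brangus libraries, and 92.1 and 88.4 in the Holstein Friesian libraries, with Kedah-Kelantan against Holstein Friesian at 0.07 (SE 0.16, edgeR adjusted p = 0.995).

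The 5 subunits of eIF2B, the exchange factor that recharges eIF2 with GTP, had smaller estimates. Their median between Kedah-Kelantan and Brangus was -0.27 with TMM and -0.0092 with total counts only. EIF2B5, the catalytic epsilon subunit, was the most abundant per length at 74.6 and 74.6 CPM in the Kedah-Kelantan libraries, 91.8 and 91.3 in the Brangus libraries, and 78.0 and 81.9 in the Holstein Friesian libraries. EIF2B2, the beta subunit, had 24.9 and 30.7 CPM in the Kedah-Kelantan libraries, 32.4 and 40.7 in the Brangus libraries, and 29.5 and 25.1 in the Holstein Friesian libraries. EIF2B4, the delta subunit, was instead lowest in Brangus, with 32.6 and 31.6 CPM in the Kedah-Kelantan libraries, 26.7 and 27.7 in the Brangus libraries, and 30.2 and 34.0 in the Holstein Friesian libraries. Its log2 fold change was 0.24 for Kedah-Kelantan against Brangus (SE 0.17, edgeR adjusted p = 0.628) and -0.24 for Brangus against Holstein Friesian (SE 0.17, edgeR adjusted p = 0.701). EIF2B3, the gamma subunit, differed between the 2 Holstein Friesian libraries, at 19.2 and 10.6 CPM.

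eIF3 is the largest initiation factor, a scaffold that links the mRNA-bound factors to the small subunit, and 13 of the genes encode it. The table lists a row for EIF3CL and none named EIF3C, so reads of the C subunit may be counted there. All 13 had a lower estimate in Kedah-Kelantan than in Brangus with TMM, but EIF3A, EIF3B, EIF3CL and EIF3I turned to higher estimates with total counts only. The median was -0.44 with TMM and -0.18 with total counts only, and 11 genes were below Brangus without overlap, against 30.7% of all genes. With total counts only 8 were below and 3 above, against 16.9% and 52.8% of all genes. EIF3M, a subunit of the octamer core of eIF3, lies on chromosome 15 from 63298855 to 63316300 on the plus strand in the authors' table. It stood at 179.7 and 188 CPM in the Kedah-Kelantan libraries, 356 and 367 in the Brangus libraries, and 233 and 162 in the Holstein Friesian libraries. Brangus libraries were the highest, and Kedah-Kelantan lay between the Holstein Friesian libraries. The fold change of Kedah-Kelantan against Brangus was -0.98 (SE 0.22, edgeR adjusted p = 0.353), the largest negative one among the 47 genes, and that of Brangus against Holstein Friesian was 0.88 (SE 0.22, edgeR adjusted p = 0.645).

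EIF3H, another core subunit, was again highest in Brangus, with 213 and 221 CPM in the Kedah-Kelantan libraries, 361 and 380.1 in the Brangus libraries, and 264 and 215 in the Holstein Friesian libraries. Kedah-Kelantan against Brangus gave -0.77 (SE 0.18, edgeR adjusted p = 0.353), and Brangus against Holstein Friesian 0.63 (SE 0.18, edgeR adjusted p = 0.645). EIF3G, an RNA-binding subunit used in scanning, had 186 and 201 CPM in the Kedah-Kelantan libraries, 296 and 309 in the Brangus libraries, and 261 and 247 in the Holstein Friesian libraries. Here the 3 breeds were apart, with -0.64 between Kedah-Kelantan and Brangus (SE 0.16, edgeR adjusted p = 0.353) and -0.39 between Kedah-Kelantan and Holstein Friesian (SE 0.16, edgeR adjusted p = 0.995). EIF3K had the shortest length of the eIF3 genes, as implied by the deposited values. It had 122 and 156 CPM in the Kedah-Kelantan libraries, 221 and 221 in the Brangus libraries, and 181 and 165 in the Holstein Friesian libraries. Kedah-Kelantan against Brangus gave -0.67 (SE 0.19, edgeR adjusted p = 0.359). EIF3L had 115 and 120.1 CPM in the Kedah-Kelantan libraries, 153 and 155 in the Brangus libraries, and 139 and 159 in the Holstein Friesian libraries, and Kedah-Kelantan against Holstein Friesian gave -0.34 (SE 0.16, edgeR adjusted p = 0.995).

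Per length, in FPKM (fragments per kilobase of gene, scaled to the library's reads), EIF3E was the highest and EIF3B the lowest of the 13 in every library. EIF3E encodes a core subunit that touches eIF4G and stood at 334 and 329 FPKM in the Kedah-Kelantan libraries, 507 and 503 in the Brangus libraries, and 481 and 265 in the Holstein Friesian libraries. EIF3B, which carries the scaffold's WD-repeat propeller, stood at 34.1 to 40.0 FPKM in all 6. The large subunit EIF3A had 341 and 299.7 CPM in the Kedah-Kelantan libraries, 333 and 331 in the Brangus libraries, and 384 and 320.4 in the Holstein Friesian libraries. With TMM the estimates of the 13 subunits for Kedah-Kelantan against Brangus ran from -0.98 to -0.05.

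**Figure D2:**
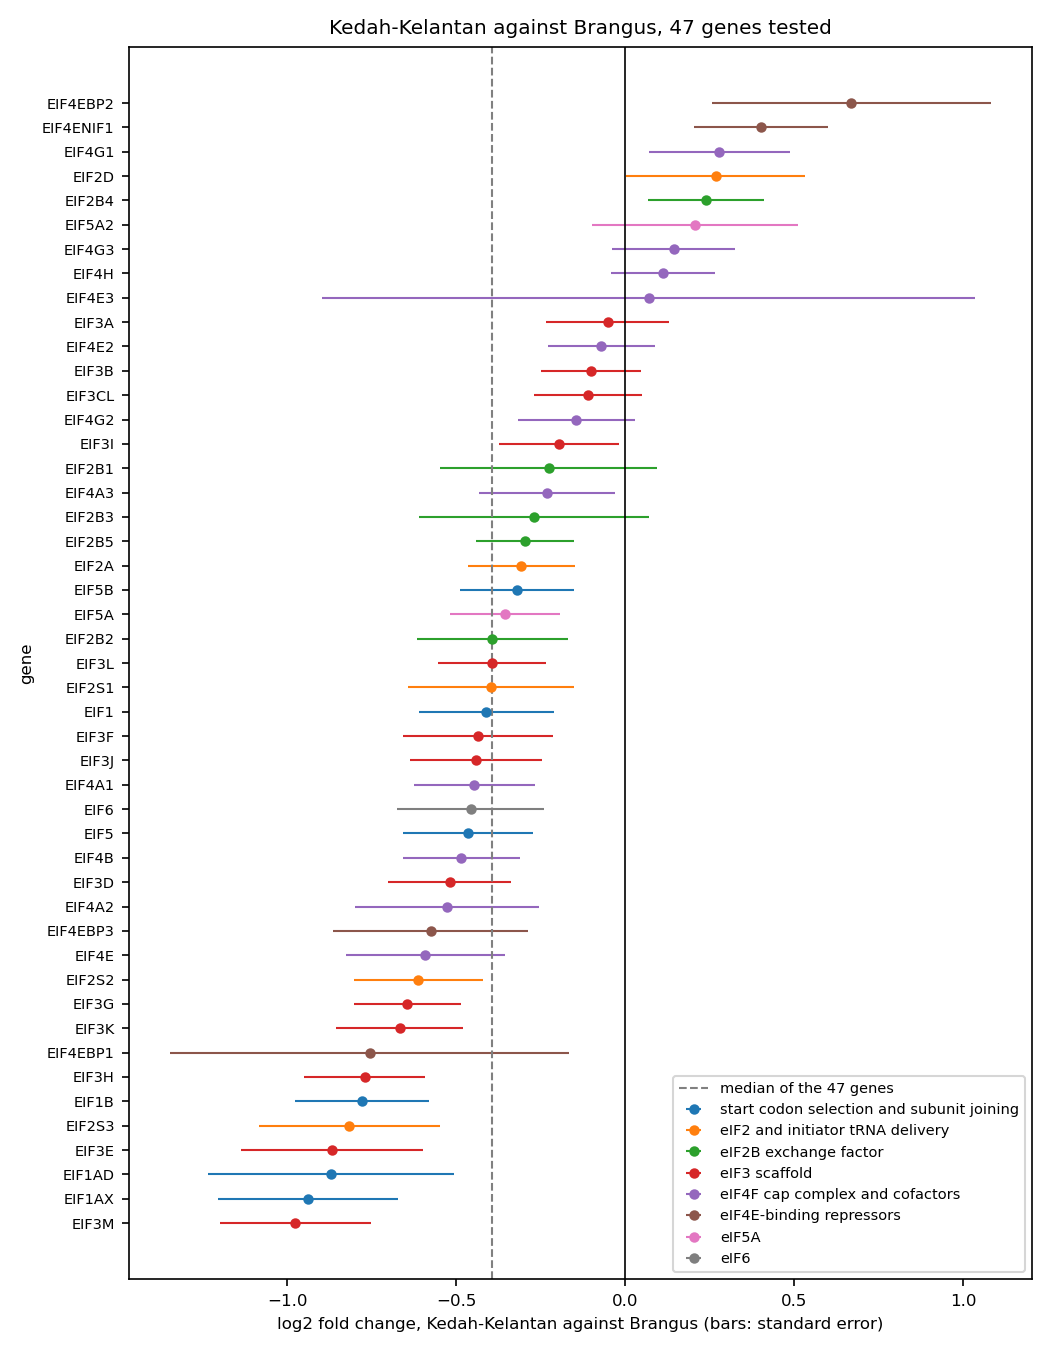
Points are the log2 fold changes of Kedah-Kelantan against Brangus for the 47 genes tested with TMM scaling, bars are standard errors, colours are roles and the dashed line is the median of the 47 genes. Most points lie left of 0, with EIF3M at -0.98 at one end and EIF4EBP2 at 0.67 at the other; with total counts only, 30 instead of 38 lie left of 0.

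The cap-binding group of 11 tested genes was mixed, with 7 below Brangus in Kedah-Kelantan without overlap and 2 above, against 30.7% and 33.5% of all genes. With total counts only 4 were below and 6 above, against 16.9% and 52.8%. Its median was -0.14 with TMM and turned to 0.12 with total counts only, beside 0.02 and 0.29 over all genes. EIF4B, a cofactor of the helicase, had the smallest p of this group in the any-breed test. It stood at 733 and 670.1 CPM in the Kedah-Kelantan libraries, 999 and 965 in the Brangus libraries, and 820.1 and 736 in the Holstein Friesian libraries. EIF4A2, a helicase paralogue and the most abundant member of the group per length, had 643 and 651 CPM in the Kedah-Kelantan libraries, 1000.8 and 866 in the Brangus libraries, and 819 and 505 in the Holstein Friesian libraries. Its paralogue EIF4A1 was at 305 and 313 CPM in the Kedah-Kelantan libraries, 422 and 419.9 in the Brangus libraries, and 357 and 439 in the Holstein Friesian libraries. Kedah-Kelantan was below all other libraries for EIF4A1, with -0.37 against Holstein Friesian (SE 0.18, edgeR adjusted p = 0.995). The ratio of EIF4A1 to EIF4A2 in FPKM was 0.458 to 0.526 in 5 libraries and 0.943 in Holstein Friesian replicate 2.

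Some of the eIF4G scaffolds had estimates of the other sign. EIF4G1, the main scaffold, had 211 and 168 CPM in the Kedah-Kelantan libraries, 145 and 167 in the Brangus libraries, and 174 and 212 in the Holstein Friesian libraries. Both Brangus libraries were the lowest, with 0.28 for Kedah-Kelantan against Brangus (SE 0.21, edgeR adjusted p = 0.639) and -0.31 for Brangus against Holstein Friesian (SE 0.21, edgeR adjusted p = 0.690). EIF4G3 had 140.3 and 111 CPM in the Kedah-Kelantan libraries, 109 and 118 in the Brangus libraries, and 133 and 128 in the Holstein Friesian libraries, and Brangus against Holstein Friesian gave -0.20 (SE 0.18, edgeR adjusted p = 0.746). EIF4H, a helicase cofactor, spanned only 323 to 359.7 CPM over the 6 libraries and gave 0.11 for Kedah-Kelantan against Brangus (SE 0.15, edgeR adjusted p = 0.812).

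EIF4E3, a cap-binding relative of eIF4E, differed more between the 2 Holstein Friesian libraries than between the other breeds. It lies on chromosome 22 from 29921561 to 30036577 on the plus strand in the authors' table. The Kedah-Kelantan and Brangus libraries stood at 34.0, 38.3, 34.1 and 34.8 CPM, and the Holstein Friesian libraries at 10.0 and 104. That replicate difference of -3.37 on the log2 scale was the largest of any member in any breed. The ratio of EIF4E3 to EIF4E in FPKM was 0.0993 in Holstein Friesian replicate 1 and 1.56 in replicate 2, against 0.345 to 0.578 in the other libraries. The monocyte, neutrophil, and eosinophil and basophil marker sums are also highest in replicate 2 and lowest in replicate 1 of this breed, with the 6 eosinophil and basophil markers at 676.4 and 33.42 CPM. Their part in the EIF4E3 difference was not tested.

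The eIF4E-binding repressors had no common direction. EIF4EBP1, the best studied target of mTORC1 in this group, had 16.2 and 24.2 CPM in the Kedah-Kelantan libraries, 38.1 and 30.1 in the Brangus libraries, and 13.4 and 44.7 in the Holstein Friesian libraries. Its Holstein Friesian libraries enclosed the other 4, and the myeloid marker sums differ between them in the same direction, a relation that was not tested. EIF4EBP2 had 31.5 and 15.9 CPM in the Kedah-Kelantan libraries, 18.5 and 11.3 in the Brangus libraries, and 22.5 and 22.5 in the Holstein Friesian libraries. Brangus was below both Holstein Friesian libraries, at -0.59 on the log2 scale (SE 0.41, edgeR adjusted p = 0.692). EIF4EBP3, the least abundant of the 3 per length, had 6.37 and 7.60 CPM in the Kedah-Kelantan libraries, 11.2 and 9.62 in the Brangus libraries, and 6.85 and 6.73 in the Holstein Friesian libraries, so that Brangus was highest. EIF4ENIF1 encodes 4E-T, which carries eIF4E into the nucleus and into P-bodies, and had 42.9 and 44.7 CPM in the Kedah-Kelantan libraries, 31.0 and 35.3 in the Brangus libraries, and 32.6 and 42.0 in the Holstein Friesian libraries. Kedah-Kelantan was highest, with 0.40 over Brangus (SE 0.20, edgeR adjusted p = 0.495) and 0.23 over Holstein Friesian (SE 0.20, edgeR adjusted p = 0.995). Summed FPKM of the 3 EIF4EBP genes were 1.82 to 2.60 times that of EIF4E in Kedah-Kelantan and Brangus, 1.29 times in Holstein Friesian replicate 1 and 3.75 times in replicate 2.

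EIF5A encodes a factor now known mainly for helping the ribosome past stretches such as prolines during elongation. It had 157 and 174 CPM in the Kedah-Kelantan libraries, 201 and 222 in the Brangus libraries, and 215 and 200.5 in the Holstein Friesian libraries. Kedah-Kelantan was the lowest with TMM, with -0.33 against Holstein Friesian (SE 0.16, edgeR adjusted p = 0.995). With total counts only the Kedah-Kelantan libraries overlapped those of both other breeds for EIF5A. Its paralogue EIF5A2 had 30.8 and 27.3 CPM in the Kedah-Kelantan libraries, 23.3 and 27.0 in the Brangus libraries, and 27.6 and 15.97 in the Holstein Friesian libraries. Per length EIF5A2 was at 0.0238 to 0.0585 of EIF5A. EIF6, which keeps the large subunit from joining too early, had 70.3 and 80.6 CPM in the Kedah-Kelantan libraries, 95.1 and 112 in the Brangus libraries, and 89.2 and 66.0 in the Holstein Friesian libraries. The remaining EIF1AY and EIF4E1B had 0 counts in all 6 libraries. EIF1AY lies on the Y chromosome and all cows were female, so its 0 was set by the design. For EIF4E1B, an oocyte relative of eIF4E, 0 counts allow up to 0.0965 to 0.129 CPM per library if 3 counts is the limit of a count of 0 (counting error only).

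**Figure D3:**
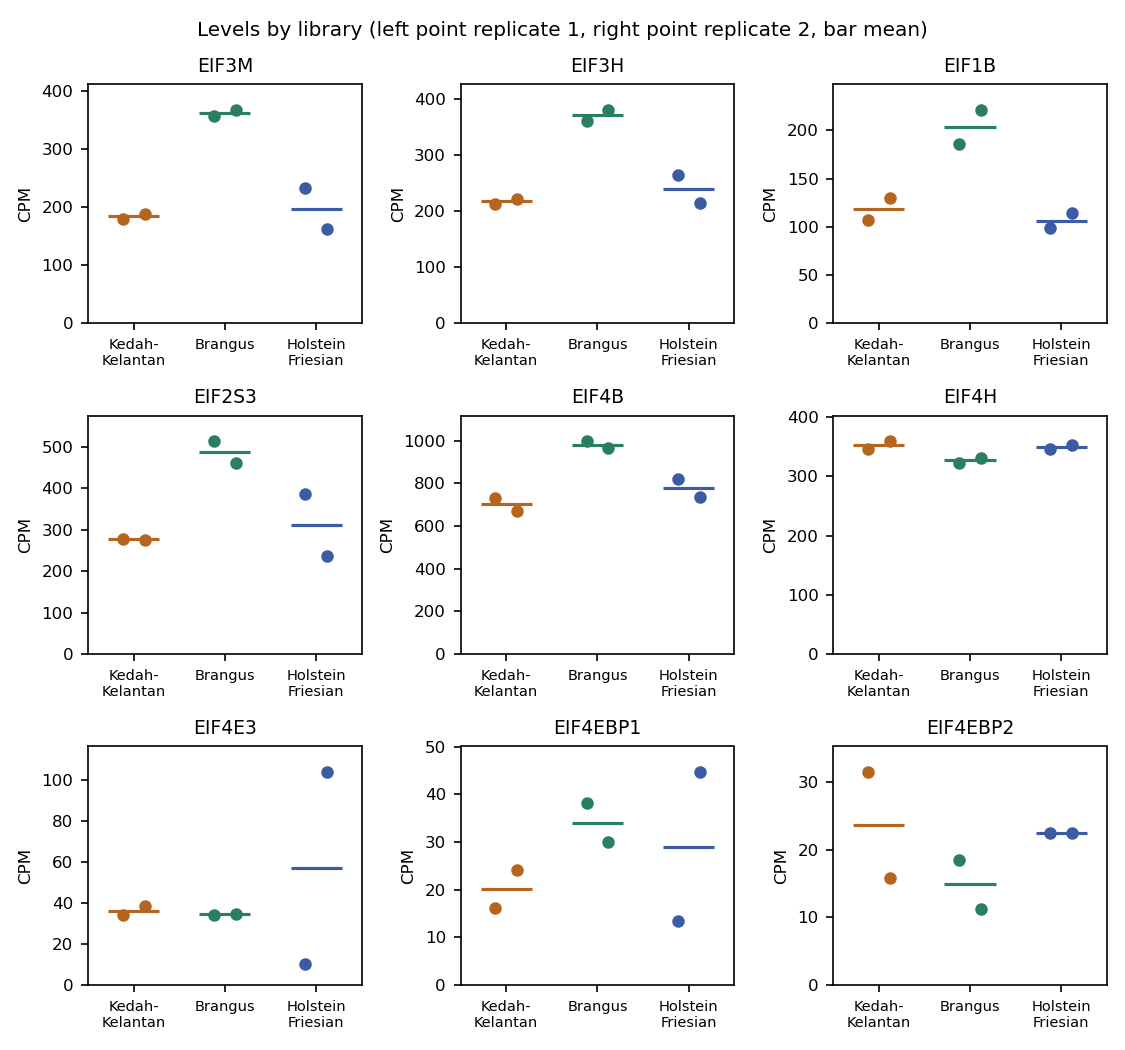
CPM of selected genes in each library (left point replicate 1, right point replicate 2, bar mean of the breed) on axes that start at 0. Brangus stands highest for genes such as EIF3M (356 and 367 CPM) with TMM scaling, while EIF4E3 spans 10.0 to 104 CPM between the 2 Holstein Friesian libraries.

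Brangus and Holstein Friesian were then compared over the whole family. Of the 47 genes, 37 had a higher estimate in Brangus with TMM (30 with total counts only), and the median was 0.22 (0.10 with total counts only), beside -0.03 and -0.14 over all genes. The Brangus libraries were above both Holstein Friesian libraries in 21 genes, against 18.4% of all genes, and below in 7, against 15.9%. With total counts only, 16 were above and 9 below, against 11.3% and 23.3%. None of the 47 was called by edgeR, as against 0.00743% of all genes. At an unadjusted p under 0.05 the test listed 3, EIF1B, EIF3H and EIF3M, all higher in Brangus, beside 3.98% of all genes. The same Brangus libraries enter the comparison with Kedah-Kelantan, so the estimates are not independent.

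Kedah-Kelantan was also set against Holstein Friesian. The median was -0.10 with TMM and turned to 0.05 with total counts only, beside -0.03 and 0.12 over all genes. Of the 47 genes, 37 had a lower estimate in Kedah-Kelantan with TMM and 16 with total counts only, so the direction of this comparison depended on the scaling. It also depended on the Holstein Friesian library kept: without replicate 1 the median was 0.0044 with 22 genes lower, and without replicate 2 it was -0.26 with 36 lower. The Kedah-Kelantan libraries were below both Holstein Friesian libraries in 14 genes, against 12.6% of all genes, and above in 3 (EIF2A, EIF2D and EIF4ENIF1), against 18.1%. No member was called by edgeR, where 0.00743% of all genes were called, and none by DESeq2, which called 1.01% of the 12933 genes to which it gave an adjusted p here. EIF5B alone had an unadjusted p under 0.05 among the members, beside 1.84% of all genes lower in Kedah-Kelantan. A test of any difference among the 3 breeds called 0 members by edgeR (0% of all genes), had an unadjusted p under 0.05 for 7 (EIF1AX, EIF1B, EIF3E, EIF3G, EIF3H, EIF3K and EIF3M), against 8.23%, and by DESeq2 called EIF1B, EIF3G, EIF3H and EIF3M, against 4.65%.

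Libraries of 1 breed differed most within Holstein Friesian. The median absolute difference between the 2 libraries of a breed was 0.07 log2 within Kedah-Kelantan, 0.12 within Brangus and 0.27 within Holstein Friesian over the 47 genes, beside 0.14, 0.22 and 0.53 over 12015 genes with at least 1 CPM. In Holstein Friesian, 35 of the 47 genes were higher in replicate 1, beside 50.8% of all genes. The 2 members that differed over 2-fold between its libraries were EIF4E3 and EIF4EBP1, while 27.1% of all genes did so.

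Fitted from the Kedah-Kelantan and Brangus libraries alone, edgeR called 20 members, all lower in Kedah-Kelantan, against 10.2% of all genes called in that direction. The genes called were EIF1, EIF1AD, EIF1AX, EIF1B, EIF2S1, EIF2S2, EIF2S3, EIF3D, EIF3E, EIF3G, EIF3H, EIF3J, EIF3K, EIF3L, EIF3M, EIF4A1, EIF4A2, EIF4B, EIF4E and EIF5. With all Kedah-Kelantan and Brangus libraries kept and Holstein Friesian replicate 1 left out, 19 were called lower (9.09% of all genes), and with replicate 2 left out, 20 were (9.62%). The same 19 genes were called in both, the above list without EIF2S1. With replicate 1 left out, EIF3M had -0.97 (SE 0.11, edgeR adjusted p = 0.00109), and with replicate 2 left out -0.98 (SE 0.10, edgeR adjusted p = 0.000959), so that the estimate stayed close while the error of the fit shrank. A fit that leaves 1 Holstein Friesian library takes its spread from the other breeds.

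Against Holstein Friesian the calls depended on which Holstein Friesian library was kept. Without replicate 1, Brangus against Holstein Friesian had 15 members called higher (14.5% of all genes) and 1 lower, EIF4E3 (16.8%). Without replicate 2, 4 were called higher (4.36%), namely EIF1B, EIF3M, EIF4E3 and EIF4EBP1. EIF1B and EIF3M were called higher in both, and EIF4E3 turned from -1.60 (SE 0.15, edgeR adjusted p = 0.00024) to 1.74 (SE 0.21, edgeR adjusted p = 0.00269). When Kedah-Kelantan was set against Holstein Friesian, leaving out replicate 1 gave 1 member called higher, EIF5A2 (6.8% of all genes), and 3 lower, EIF4A1, EIF4E3 and EIF4EBP1 (10.7%). Leaving out replicate 2 gave 1 higher, EIF4E3 (6.56%), and 5 lower, EIF1AX, EIF2S1, EIF2S3, EIF3E and EIF4E (5.35%). EIF4E3 was the only gene called in both, in opposite directions. The test of any breed difference called 23 members without replicate 1 (34.1% of all genes) and 20 without replicate 2 (19.9%). Leaving out any Kedah-Kelantan or Brangus library gave 0 calls among the members.

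The difference between Brangus and Kedah-Kelantan went with the length per gene implied by counts and FPKM, short genes lying higher in Brangus. Over the 47 genes the log2 fold change of Brangus over Kedah-Kelantan had a Pearson r of -0.58 and a Spearman rho of -0.63 with log2 length, beside -0.20 and -0.34 over 12015 genes. Genes share the same 4 libraries and are not independent replicates. Among genes up to 1000 bases by this length all 5 members were higher in Brangus with a median of 0.76, against 0.53 over all genes of that length. Above that and up to 2000 bases 21 of 23 were higher (median 0.44 against 0.21), and from there to 4000 bases 7 of 9 (0.14 against -0.02). Above 4000 bases 5 of 10 were higher, with a median of -0.05 against -0.18. In each class the median of the members was thus above that of all genes of the class. With the trend on length removed, 38 of the 47 were lower in Kedah-Kelantan (median -0.22), and the 2-breed fit called 12 members, EIF2S1, EIF2S3, EIF3D, EIF3E, EIF3H, EIF3M, EIF4A1, EIF4A2, EIF4B, EIF4E, EIF5 and EIF5B, against 7.17% of all genes called lower. RNA quality per library is not given in the sources used here, beyond a minimum for all, and its part was not tested.

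**Figure D4:**
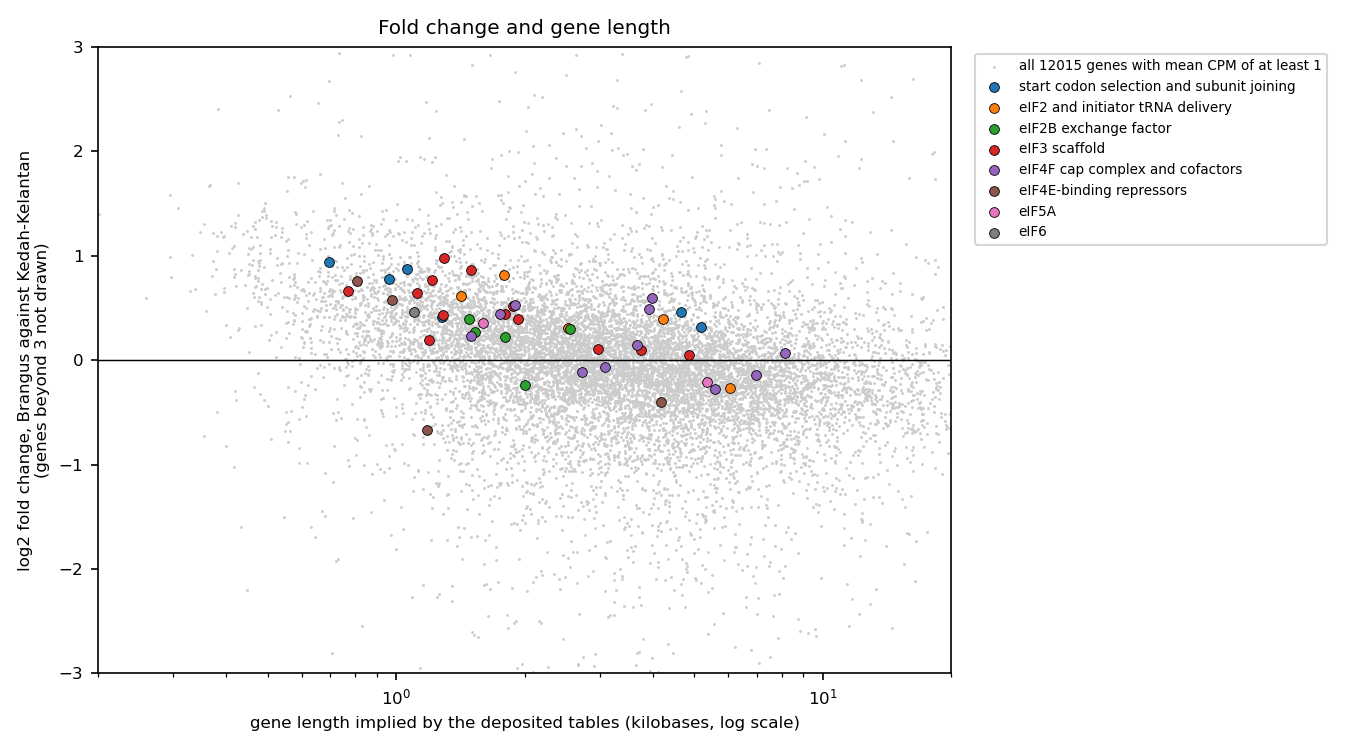
Each coloured point is an initiation factor gene and each grey point 1 of 12015 genes with a mean of at least 1 CPM; the horizontal axis is length in kilobases on a log scale and the vertical axis the log2 fold change of Brangus over Kedah-Kelantan with TMM. The short members lie highest, with a median of 0.76 up to 1000 bases and -0.05 above 4000 bases.

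The rest of the translation machinery was read from lists of other genes, where edgeR likewise called 0 genes in each list and comparison. All 82 tested genes of cytosolic ribosomal proteins were lower in Kedah-Kelantan than in Brangus, with a median of -1.25 (-0.99 with total counts only), and DESeq2 called 70 of them lower, against 2.74% of all genes. Against Holstein Friesian all 82 were higher in Brangus (median 0.86), of which DESeq2 called 4, against 1.09%. The median of the initiation factors between Kedah-Kelantan and Brangus was -0.39 beside that of -1.25 for the ribosomal protein genes.

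Of the 7 tested elongation factors, 6 were lower in Kedah-Kelantan than in Brangus, beside 48.1% of all genes (median -0.85, or -0.59 with total counts only), and DESeq2 called 5 lower, against 2.74% of all genes. EEF1B2 and EEF1D encode subunits that recharge the tRNA-delivering factor eEF1A. EEF1B2 had 324 and 338 CPM in the Kedah-Kelantan libraries, 733 and 784 in the Brangus libraries, and 523 and 312 in the Holstein Friesian libraries, and EEF1D had 158 and 188, 352 and 374, and 229.6 and 163 CPM in the same order. In both genes the Brangus libraries were above the other 4. Termination and recycling genes (6 tested) had a median of -0.10 between Kedah-Kelantan and Brangus, beside 0.02 over all genes. With total counts only it turned to 0.16, beside 0.29 over all genes. There ETF1, the stop codon reader, had 99.3 to 142 CPM and GSPT2, its GTPase partner, 20.5 to 44.9 CPM over the 6 libraries. The 5 genes of poly(A)-binding proteins, which bind the mRNA tail, and of their partners had a median of -0.31 (-0.05 with total counts only), with PABPC4 at 57.3 to 80.9 CPM and PAIP2 at 202 to 488. The 7 helpers of initiation outside the EIF names had a median of -0.32 (-0.05 with total counts only). DENR and MCTS1, whose proteins act as a pair in re-initiation and recycling, stood at 18.2 to 49.5 and 16.2 to 42.9 CPM, each lowest in Holstein Friesian replicate 2.

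The regulators of initiation were read in the same way. The 10 genes of eIF2 kinases, their regulators and the eIF2 phosphatase had a median of 0.04 between Kedah-Kelantan and Brangus (0.30 with total counts only). Over all genes it was 0.02 and 0.29. Against Holstein Friesian the medians were -0.23 for Brangus and -0.22 for Kedah-Kelantan (-0.33 and -0.04 with total counts only). Over all genes these were both -0.03 with TMM, and -0.14 and 0.12 with total counts only. Without Holstein Friesian replicate 2 the list medians were -0.14 for Brangus and -0.02 for Kedah-Kelantan. Without replicate 1 they were -0.42 and -0.38. IMPACT, an inhibitor of the kinase GCN2, had 64.8 and 66.8 CPM in the Kedah-Kelantan libraries, 34.5 and 33.8 in the Brangus libraries, and 38.2 and 115 in the Holstein Friesian libraries, and DNAJC3, an inhibitor of eIF2 kinases, spanned 30.7 to 60.8 CPM. Among 15 tested targets of the integrated stress response the median was -0.04 between Kedah-Kelantan and Brangus, beside 0.02 over all genes. With total counts only it turned to 0.22, beside 0.29 over all genes. ATF4, the transcription factor translated when eIF2 is phosphorylated, had 335 and 353 CPM in the Kedah-Kelantan libraries, 499 and 559 in the Brangus libraries, and 360.3 and 362 in the Holstein Friesian libraries. Its Brangus libraries were the highest, at -0.62 for Kedah-Kelantan against Brangus (SE 0.17, edgeR adjusted p = 0.353). Its target SLC7A11, a cystine transporter, had 10.2 and 9.13 CPM in the Kedah-Kelantan libraries, 0.814 and 0.687 in the Brangus libraries, and 0.772 and 16.5 in the Holstein Friesian libraries. The same 3 libraries were high in the eosinophil and basophil marker sums, with 260.9 and 270.1 CPM for Kedah-Kelantan and 676.4 for Holstein Friesian replicate 2, against 38.71 and 36.52 in Brangus and 33.42 in Holstein Friesian replicate 1. Their part in this gene was not tested. The 14 genes of mTORC1 and MNK signalling to eIF4E had a median of 0.23 between Kedah-Kelantan and Brangus, or 0.50 with total counts only. Over all genes these medians were 0.02 and 0.29. With TMM 11 of the 14 were higher in Kedah-Kelantan, beside 51.9% of all genes. TSC1 and TSC2 encode the complex that restrains mTORC1. TSC1 had 86.1 and 67.6 CPM in the Kedah-Kelantan libraries, 50.2 and 51.0 in the Brangus libraries, and 60.2 and 70.2 in the Holstein Friesian libraries, while TSC2 had 40.4 and 36.5, 21.0 and 28.6, and 30.1 and 33.2 CPM.

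**Figure D5:**
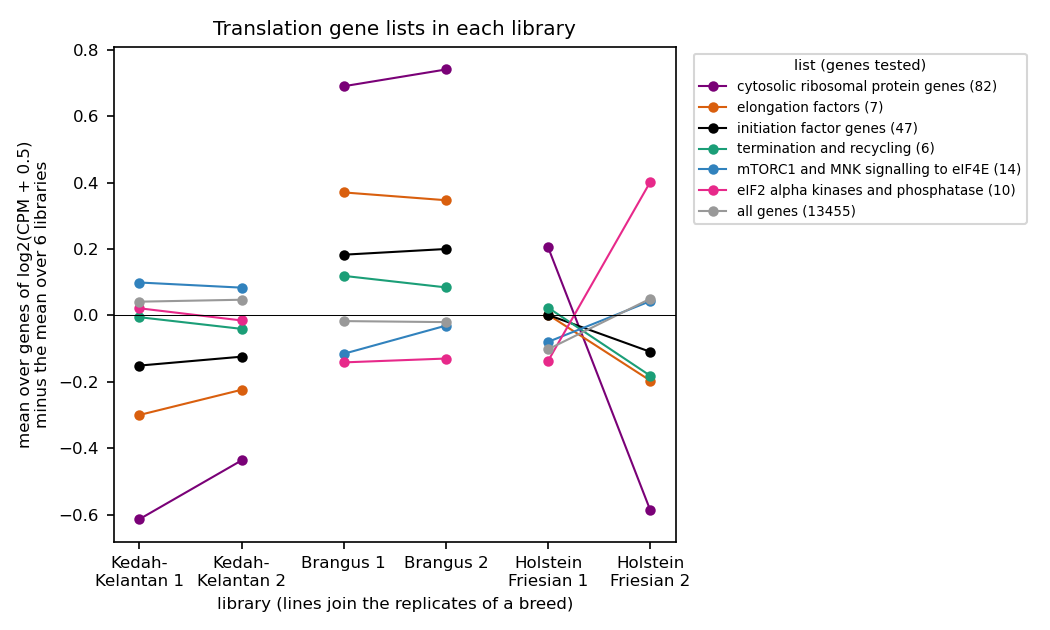
Mean over the genes of each list of log2(CPM + 0.5) minus the gene's mean over the 6 libraries, with lines joining the replicates of a breed and TMM scaling. Ribosomal protein genes run from -0.61 in a Kedah-Kelantan library to 0.74 in a Brangus library and initiation factors from -0.15 to 0.20. Of the lists drawn, the median of termination and recycling genes between Kedah-Kelantan and Brangus turned from -0.10 to 0.16 with total counts only. The median over all genes moved from 0.02 to 0.29.

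Beside these differences between Kedah-Kelantan and Brangus stood the platelet markers, of which 7 of 8 tested were lower in Kedah-Kelantan (median -1.81; summed level 299.6 and 346.7 against 1287 and 1416 CPM), and the NK and cytotoxic markers, whose sums were lower in Brangus. Of the 11 B cell markers 8 were lower in Kedah-Kelantan with TMM, beside 48.1% of all genes. All 8 were so without overlap, against 30.7% of all genes. Their median was -0.42 beside -0.39 for the initiation factors, which was -0.13 with total counts only. The B cell sums were 2015 and 2150 against 3195 and 2742 CPM. Of the 8 tested neutrophil markers 7 were lower in Kedah-Kelantan (median -0.66), with sums of 1420 and 1506 against 1684 and 2718 CPM. Higher in Kedah-Kelantan, beside 51.9% of all genes, were 4 of the 5 tested eosinophil and basophil markers (median 2.97). Their sums were 260.9 and 270.1 against 38.71 and 36.52 CPM. So were 7 of the 10 monocyte markers (median 0.57), with sums of 1515 and 1734 against 1176 and 1213 CPM. Of 11 T cell markers 7 were higher (median 0.11), and of 7 gamma delta T cell markers 6 were lower (median -0.15). All 9 platelet markers in the table had counts, with GP1BA near 0 at 1 to 14 counts. The red cell marker sums were 149.8 and 186.1 CPM in Kedah-Kelantan and 450.6 and 644 CPM in Brangus, nearly all from HBB, while SLC4A1 and HBM lay at or near 0. The part of these cells in the initiation factor levels was not tested.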

How the data were processed

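Whole-blood RNA of cows was sequenced in 6 libraries, and the authors deposited a raw count matrix and an FPKM table. Per the submitters' processing notes, the tools were featureCounts 2.0.1, HISAT2 2.2.1, DESeq2 1.38.0, Trimmomatic 0.39 and FastQC 0.11.9, and the build named is ARS-UCD1.2. Positions are quoted as deposited and not tied to a build, since the table also lists a Y chromosome. Strand use in counting is not given in the sources used here, so overlapping genes cannot be separated. The deposited FPKM are the authors' values; counts divided by FPKM and by total fitted 1 length per gene within 0.88% for 3846 genes, and that length was used.

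Raw counts were filtered with filterByExpr, scaled by TMM and tested by edgeR 4.0.16 (limma 3.58.1, R 4.3.3) with a quasi-likelihood model of breed on all 6 libraries (3 residual degrees of freedom), with Benjamini-Hochberg adjustment over 13455 genes and a threshold of 0.05. A standard error is the fold change over the root of the F statistic. DESeq2 1.42.0, limma on log2(FPKM + 0.1), other scalings and filters, left-out libraries, a replicate block and the removal of a length trend were alternatives; total counts only and the length trend were added after seeing the data. Scripts were tested on simulated data. The labels call the libraries biological replicates and name no batch. The common biological coefficient of variation was 0.43, and libraries of a breed differed by more than counting noise, so none was counted as a duplicate. Molecular identifiers are not mentioned in the sources used here, so limits cover counting error only.

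The genes and lists were chosen with earlier results of these data known. Named genes were, per comparison, up to 5 with separate breeds and the smallest p in each direction, per role the smallest p and the highest FPKM, the 5 largest replicate differences, all eIF4E-binding repressors and eIF5A genes, and genes at 0; other names, such as EIF3A and EIF3B, were added after their values were seen. In each list of other genes up to 2 with the smallest p were named.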

Additional observations from a re-analysis of the deposited data

How the results depend on the processing

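With edgeR and 6 libraries the number of initiation factor genes called stayed at 0 under other size factors, filters, globin removal, limma on FPKM, total counts only and a length trend removed. DESeq2 called 1 for Brangus against Holstein Friesian, 6 for Kedah-Kelantan against Brangus and 4 for any breed. The fit on 2 breeds called 20 for Kedah-Kelantan against Brangus, and 12 with the length trend removed. Leaving out a library gave 0 to 6 for Kedah-Kelantan against Holstein Friesian, 0 to 16 for Brangus against Holstein Friesian, 0 to 20 for Kedah-Kelantan against Brangus and 0 to 23 for any breed, with calls only where a Holstein Friesian library was left out. The median for Kedah-Kelantan against Holstein Friesian was 0.0723 on FPKM, 0.0495 with total counts only and -0.26 to 0.0044 with a library left out. For Brangus against Holstein Friesian it was 0.0979 with total counts only and 0.14 to 0.41 with a library left out. For Kedah-Kelantan against Brangus it was -0.13 on FPKM, -0.13 with total counts only, -0.22 with the length trend removed, -0.22 with that and 2 breeds, and -0.42 to -0.29 with a library left out. Among 28 pairs of a gene and a comparison, no refit changed a direction, 445 values stayed on their side of the threshold and 31 passed it where the 6-library fit did not. These pairs had been picked from the same data for separate breeds and the smallest p, which favours a stable direction. Over all 47 genes directions did change. Kedah-Kelantan was lower than Holstein Friesian in 37 with TMM and in 16 with total counts only. A fit with the replicate number as a block called 0 genes, with medians of -0.09, 0.25 and -0.39. Deviations of same-numbered libraries correlated at 0.02, 0.0016 and 0.10 between breeds. From so few libraries these values cannot show whether the replicate numbers carry a pairing or a batch. With 2 libraries a breed, a difference not called here may still exist.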
